A study of Mus musculus with 6 samples.

Results

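The messages of the cytosolic ribosomal proteins were followed through 6 RNA sequencing libraries from mouse midbrain. Members were the gene symbols that start with Rpl or Rps and go on with a number or with p0 to p2, with the letter endings of paralogues, so that Rpl10a is included. By this rule 83 of 32531 gene entries were members, 51 of the large and 32 of the small subunit. Rpsa, Fau, Rpl36al and Gnb2l1 (Rack1) also code for ribosomal proteins but are not matched by the rule, and they are described separately.

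The libraries came from translating ribosome affinity purification (TRAP), in which polysomes that carry a tagged ribosomal protein are pulled out of a tissue homogenate and their RNA is sequenced. All samples were from adult mice of the Lhx5-EGFP/Rpl10a line DT154, untreated controls, whose transgene puts EGFP on the large-subunit protein Rpl10a in cells where the control regions of Lhx5, a homeobox gene of the LIM class, are active. The 3 IP libraries hold RNA from polysomes caught on magnetic beads by antibodies against EGFP, and the 3 Input libraries are the comparison from the same tissue, titled Input and elsewhere labelled unbound, so that either the full homogenate or what the beads left behind may have been sequenced. Nothing in the labels ties the replicates to different animals. The spread behind each p-value is that between these libraries, which may not cover differences between animals. The comparison asks which messages are on the ribosomes of tagged cells relative to the surrounding midbrain.

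A ribosome is built from ribosomal RNA and a set of proteins that are made in near equal numbers, assembled in the nucleolus into a large subunit, which joins amino acids, and a small subunit, which reads the message. Most messages of these proteins begin with a pyrimidine tract known as a 5′ terminal oligopyrimidine (TOP) motif, through which mTORC1 and Larp1 control their translation. Their genes have left many processed pseudogenes in mammalian genomes, so short reads of a member often match several places.

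Gene counts totalled 38058239 to 45841499 per library. By these totals alone, without the TMM factors used for the other values, 3 counts corresponded to 0.0654 to 0.0788 CPM (gene counts scaled to library size). Markers of neurons summed to 18152 to 23054 CPM in IP and 8173 to 11749 in Input, and 5 of 6 were higher in IP. Those of oligodendrocytes (290 to 431 CPM in IP, 3649 to 4333 in Input) and astrocytes (111 to 166 in IP, 1024 to 1368 in Input) were lower in IP for 6 of 6 each. Microglial and endothelial markers were lower in IP for 5 of 6 each, at 11.1 to 23.5 and 4.11 to 4.71 CPM in IP against 48.4 to 85.3 and 10.8 to 15.8 in Input. No marker of these 5 lists was at 0 in either group. IP replicate 2 stood apart in Purkinje cell markers, at 1246 CPM against 178 and 237 in the other IP libraries and 265 to 421 in Input. Choroid plexus markers summed to 6.42 to 27.3 CPM in IP and, in Input replicates 1, 2 and 3, to 363, 15.8 and 1350. Striatal markers summed to 135 to 241 CPM in IP and to 171, 70.4 and 637 in the same Input libraries, so that Input replicate 3 stood apart in both lists. Of the 4 striatal markers 3 were lower in IP, and the remaining marker, which held most of the IP sum, passed in neither direction. The part of cell composition in the results below was not tested, and in bulk samples fewer cells of a type and less RNA per cell cannot be told apart.

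Members held 0.368, 0.377 and 0.413% of gene counts in IP replicates 1, 2 and 3, against 0.355, 0.354 and 0.373% in Input. The groups overlapped, because IP replicate 1 lay below Input replicate 3. The mean was 0.386% ± 0.0238 in IP against 0.361% ± 0.0108 in Input (SD, n = 3 each). Large-subunit counts were 1.25, 1.28 and 1.27 times small-subunit counts in IP and 1.22, 1.24 and 1.199 times in Input. All 3 IP ratios lay above all 3 Input ratios, by a margin smaller than the range within Input, and no test was made of this summed value. The member shares were of gene counts alone, and entries for reads with more than 1 alignment, which count for no gene, made up 44.2% ± 0.402 of each file's whole sum in IP, against 32.5% ± 0.596 in Input (SD, n = 3 each). Reads set aside as ambiguous between overlapping genes made up 1.63% ± 0.0460 in IP and 9.35% ± 1.48 in Input. The part of these reads in the members' counts was not tested.

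Of the 83 members, 80 had enough counts to be tested. With edgeR's quasi-likelihood test and Benjamini-Hochberg adjustment over 17197 genes, 27 of the 80 (33.8%) were higher in IP at an adjusted p under 0.05, where 26% of all genes tested were. Lower in IP were 4 (5%), where 27.9% of all genes tested were, and 49 passed in neither direction. The median log2 fold change was 0.26 over the tested members and -0.01 over all genes tested, with 66 members above 0 and 14 below. Scaling to the upper quartile of each library, which put the median of all genes at -0.17, gave 18 members higher and 7 lower. The members' median stood 0.28 above that of all genes with TMM and 0.27 above it with upper-quartile scaling. Within the same-numbered pairs of libraries, each labelled with the same lane number, the members' median was 0.25, 0.21 and 0.28. Leaving out Input replicate 1 reduced the members called higher to 17, and leaving out IP replicate 2 together with Input replicate 3 also gave 17.

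**Figure D1:**
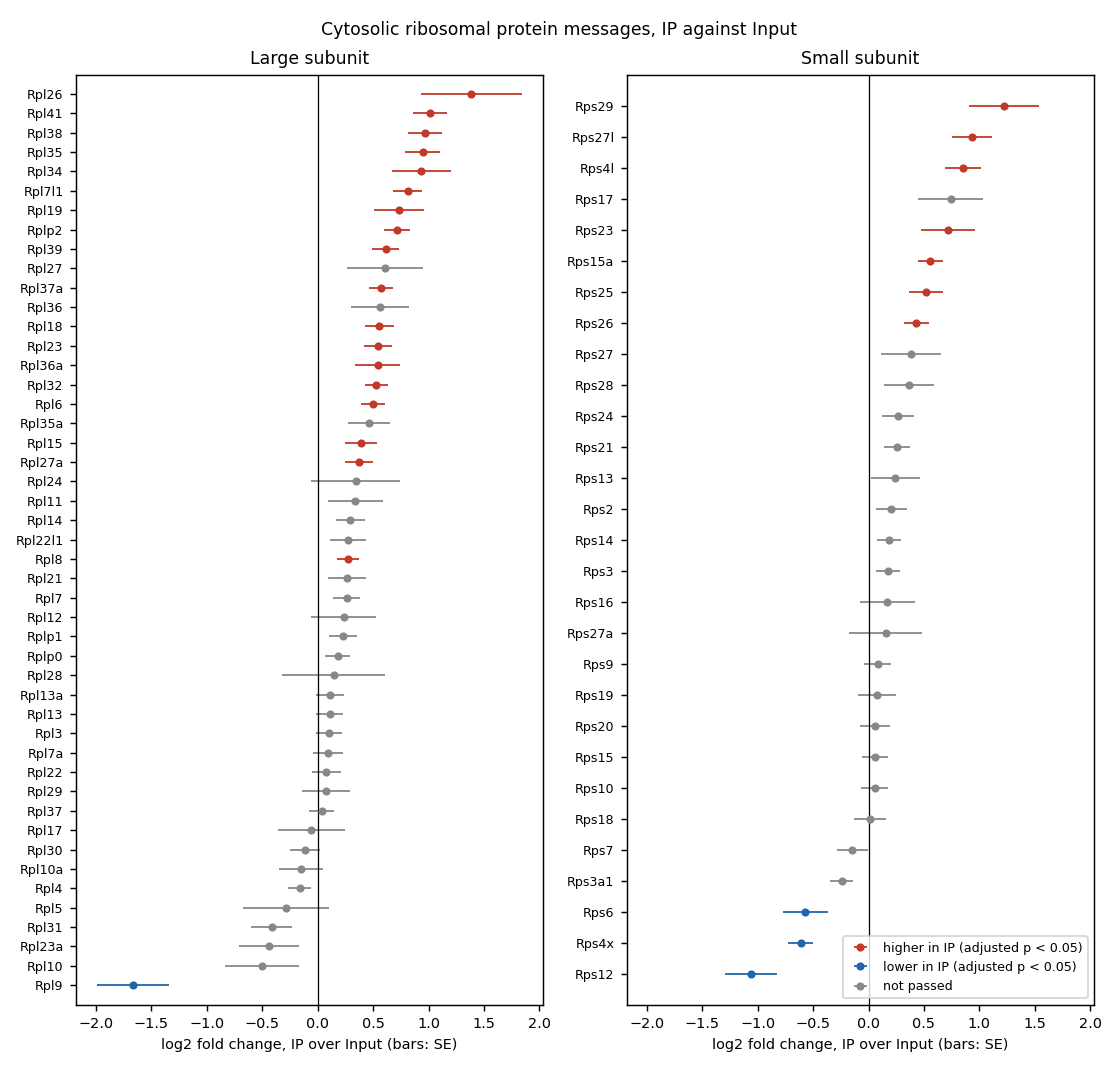
Log2 fold change of each tested member, IP over Input (horizontal axis), with its SE as a bar, for the large-subunit and small-subunit messages named in the panels; a few tested members are not drawn. Red points passed the test as higher in IP and blue points as lower; most grey points lie to the right of 0, and Rpl9 and Rps12 lie farthest to the left.

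The subunits were compared by counts and medians, with no test of the difference. In the large subunit 18 of 48 tested members were higher in IP, 1 was lower and the median log2 fold change was 0.28. In the small subunit 9 of 32 were higher, 3 were lower and the median was 0.19. The 9 include Rps4l, which is a member by its symbol but is annotated in GENCODE M21 as a transcribed processed pseudogene. Within the pairs of libraries the large-subunit median was 0.30, 0.23 and 0.35 and the small-subunit median 0.18, 0.20 and 0.23, so that the large-subunit median was the higher in each pair, by little in the second. Without IP replicate 2 and Input replicate 3 the order turned, with a median of 0.27 in the large and 0.30 in the small subunit. The median log2 fold change was 0.57 over the 27 members called higher, against 0.82 over all genes called higher.

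Rpl10a is the protein of the L1 stalk, which helps spent tRNA leave the ribosome, and it carries the EGFP tag in this line. Rpl10a had 7.002, 7.03 and 7.04 CPM in IP against 8.97, 6.08 and 8.37 CPM in Input. The IP libraries agreed closely and lay inside the Input range. The log2 fold change was -0.15 (SE 0.20), which did not pass (adjusted p = 0.548 by edgeR's quasi-likelihood test). Only 11.9% of the 50-base stretches of its transcript occurred in no other annotated gene, and whether messages of the fusion add to this count cannot be told from the files.

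Around the exit of the tunnel through which the new peptide leaves the large subunit, 5 of 9 listed proteins had messages that were higher in IP, namely Rpl19, Rpl26, Rpl35, Rpl38 and Rpl39, and none was lower, where 33.8% of tested members and 26% of all genes tested were higher. All 9 have a coding sequence under 600 bases. Of tested genes that were no members, 58.6% were higher under 400 bases and 53.5% from 400 to under 600 bases, so the count is near that of short genes. Rpl19 and Rpl26 each lost their call in 7 alternatives. Rpl38, known in mouse embryos for its effect on the translation of Hox messages, had 46.5, 41.6 and 56.3 CPM in IP against 25.0, 21.6 and 27.2 CPM in Input. The lowest IP library was far above the highest Input library, and the log2 fold change was 0.97 (SE 0.15). Rpl35, a tunnel-exit protein that contacts the signal recognition particle, had 13.6, 12.3 and 14.3 CPM in IP against 7.02, 6.49 and 7.31 CPM in Input. This gave a log2 fold change of 0.95 (SE 0.16) without overlap, although 68.3% of the exon length of Rpl35 is shared with exons of Arpc5l and Wdr38 and 4.91% of its 50-base stretches were unique. Rpl26 had the highest fold change of the members, at 1.34, 0.806 and 1.05 CPM in IP against 0.457, 0.413 and 0.346 CPM in Input. Its groups did not overlap and the log2 fold change was 1.39 (SE 0.46, adjusted p = 0.0304 by edgeR), but with the replicate number as a block the adjusted p was 0.0673, over a range of 0.0204 to 0.0938 among 15 alternatives. Rpl19, which reaches across to the small subunit, had 4.49, 4.69 and 5.34 CPM in IP against 2.69, 3.19 and 2.84 CPM in Input. All IP libraries exceeded all Input libraries, with a log2 fold change of 0.74 (SE 0.22). Rpl39, a small protein that lines the tunnel, was higher by 0.62 (SE 0.12), while Rpl17, Rpl22, Rpl23a and Rpl31 did not pass, at -0.06, 0.08, -0.44 and -0.42.

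Of the P stalk, which recruits elongation factors to the ribosome, only Rplp2 passed. Rplp2 had 95.6, 101 and 120.4 CPM in IP against 64.2, 61.0 and 67.5 CPM in Input. The groups stood well apart, and the log2 fold change was 0.72 (SE 0.12). Its partner Rplp1 had a mean of 112 ± 14.6 CPM in IP against 96.0 ± 7.75 in Input (SD, n = 3 each), a log2 fold change of 0.23 (SE 0.13). Rplp0, the base of the stalk, stood at 0.18 (SE 0.11), and the difference between Rplp2 and its partners was not tested. Rpl5 and Rpl11, which bind 5S ribosomal RNA and, outside the ribosome, the p53 regulator Mdm2, did not pass. Their log2 fold changes were -0.29 (SE 0.39) and 0.34 (SE 0.25), at 0.836 and 4.90 CPM in IP against 1.02 and 3.87 CPM in Input.

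Among the other large-subunit members, Rpl41, the shortest ribosomal protein, had 121, 124 and 164 CPM in IP against 60.4, 65.9 and 76.9 CPM in Input. IP replicate 3 was highest and no library crossed between groups, and the log2 fold change was 1.01 (SE 0.15, adjusted p = 0.000867 by edgeR). Rpl34 had 20.6, 27.4 and 36.7 CPM in IP against 11.7, 12.4 and 20.2 CPM in Input. Its groups nearly met, since Input replicate 3 was just under IP replicate 1, and the log2 fold change was 0.94 (SE 0.27). Replicate 3 was the highest library of Rpl34 in IP and in Input alike. Rpl7l1, a relative of Rpl7 whose yeast counterpart Rlp7 acts in ribosome assembly, had 34.0, 38.9 and 40.3 CPM in IP against 19.6, 22.5 and 22.4 CPM in Input, and its log2 fold change was 0.81 (SE 0.13).

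In the small subunit, Rps29, a zinc-binding protein of the subunit's head, had 2.44, 2.95 and 3.13 CPM in IP against 1.47, 1.12 and 1.06 CPM in Input. The groups did not overlap, with a log2 fold change of 1.22 (SE 0.31). Rps23, a protein of the decoding centre, had 3.73, 4.30 and 3.71 CPM in IP against 2.16, 2.36 and 2.62 CPM in Input. Its log2 fold change was 0.72 (SE 0.24, adjusted p = 0.0357 by edgeR), and with the replicate block the adjusted p was 0.0572, over a range of 0.0187 to 0.12 among 16 alternatives. Rps15a, a small-subunit protein whose human gene is mutated in Diamond-Blackfan anaemia, averaged 304 ± 34.8 CPM in IP against 207 ± 6.22 in Input (SD, n = 3 each), a log2 fold change of 0.56 (SE 0.11). The adjusted p-values of the 12 largest rises, Rps27l and Rps4l included, were at most 0.0357 by edgeR's quasi-likelihood test.

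The other 15 members that rose did so by 0.27 to 0.62 on the log2 scale, with adjusted p-values up to 0.0481 by edgeR. Of these 10 were of the large and 5 of the small subunit, among them Rpl39, Rpl37a, Rps15a, Rpl18, Rpl23, Rpl36a, Rpl32, Rps25, Rpl6, Rps26, Rpl15, Rpl27a and Rpl8. Rpl36a and Rpl8 stood nearest to the threshold and each lost its call in 13 of 16 alternatives. With the replicate block, Rpl36a had an adjusted p of 0.0642 (range 0.0386 to 0.144 over the alternatives, by edgeR unless another tool was the alternative). Of the 49 members that did not pass, 29 were of the large and 20 of the small subunit, their log2 fold changes ran from -0.51 to 0.74, and 4 had an unadjusted p under 0.05. Of these, Rpl14, Rpl35a and Rps24 were among those that passed with the replicate block, at adjusted p-values of 0.0331, 0.0187 and 0.0445 in edgeR. Over all alternatives their adjusted p-values reached 0.404, 0.607 and 0.561.

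**Figure D2:**
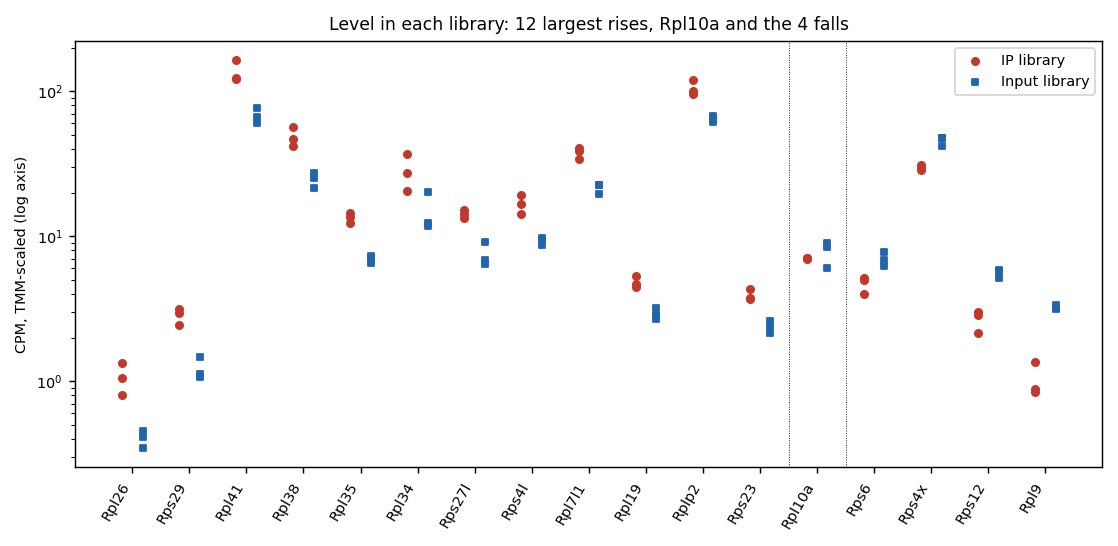
Level of 17 members in each library, in TMM-scaled CPM on a log axis, with IP libraries as red circles to the left of Input libraries as blue squares. IP and Input separate for the 12 largest rises (left) and the 4 falls (right), and the 3 IP libraries of Rpl10a lie within its Input libraries.

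The falls were 4, and none of these groups overlapped. Rpl9, a large-subunit protein near the sarcin-ricin loop where elongation factors act, had 0.836, 0.879 and 1.35 CPM in IP against 3.22, 3.16 and 3.36 CPM in Input. Every IP library was below every Input library by more than the spread of either group, and the log2 fold change was -1.66 (SE 0.32, adjusted p = 0.00285 by edgeR), which is 3.17-fold lower. Rps12, a small-subunit protein that acts in cell competition in Drosophila, had 2.15, 3.004 and 2.87 CPM in IP against 5.12, 5.87 and 5.73 CPM in Input. The separation was again complete, and the log2 fold change was -1.06 (SE 0.24, adjusted p = 0.00542 by edgeR). Rps4x, the X-linked form of the small-subunit protein Rps4, had 31.2, 29.5 and 28.7 CPM in IP against 47.5, 41.6 and 47.7 CPM in Input. It fell by 0.61 on the log2 scale (SE 0.11, adjusted p = 0.00236 by edgeR). Rps6, the target of the S6 kinases whose phosphorylation is used as a marker of neuronal activity, had 4.99, 5.15 and 3.99 CPM in IP against 6.90, 6.26 and 7.82 CPM in Input. Its log2 fold change of -0.57 (SE 0.21) was close to the threshold (adjusted p = 0.0436 by edgeR), and with the replicate block the adjusted p was 0.0630, over a range of 0.0160 to 0.114 among 16 alternatives.

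Members differed widely in counted level within a library, although their proteins are needed in near equal numbers. Reads with more than 1 alignment or ambiguous between overlapping genes count for no member, and their part in these levels was not tested. Per kb of exon, Rpl4, which lines the peptide tunnel, was highest in Input, at 294 CPM per kb in IP and 329 in Input. Also among the 5 highest in Input were Rps15 (218 in IP, 209.6 in Input), Rps21 (242 in IP, 203 in Input) and Rpl8 (234 in IP, 193 in Input). Of the members named here only Rpl8, a core protein beside the peptidyl transferase centre, passed the test, with a log2 fold change of 0.27. The lowest tested member was Rpl5, at 0.373 CPM per kb in IP and 0.455 in Input, so the counted Input levels per kb spanned 724-fold. Of the exon length of Rpl5, 42.5% is shared with exons of Fam69a. The 5 members with the most counts held 35.3% ± 0.210 of the members' counts in IP, against 38.4% ± 0.937 in Input (SD, n = 3 each).

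The levels were set against how much of a transcript is found nowhere else. In GENCODE M21, 80 of the 83 members shared at least a 50-base stretch with another annotated gene, the median member shared with 10 genes, and a median of 50.6% of a member's 50-base stretches were unique to it. Across the 80 tested members the unique share correlated with the log2 IP level per kb at r = 0.51 and with the Input level at r = 0.45 (Spearman's rho 0.46). Genes are not independent replicates, the levels come from the same libraries, and these values are descriptions. Rpl5 had 6.16% unique stretches, Rpl9 6.68% and Rps27 1.35%, while Rpl4 had 83.5%. How many reads of such members were set aside cannot be told from the files.

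**Figure D3:**
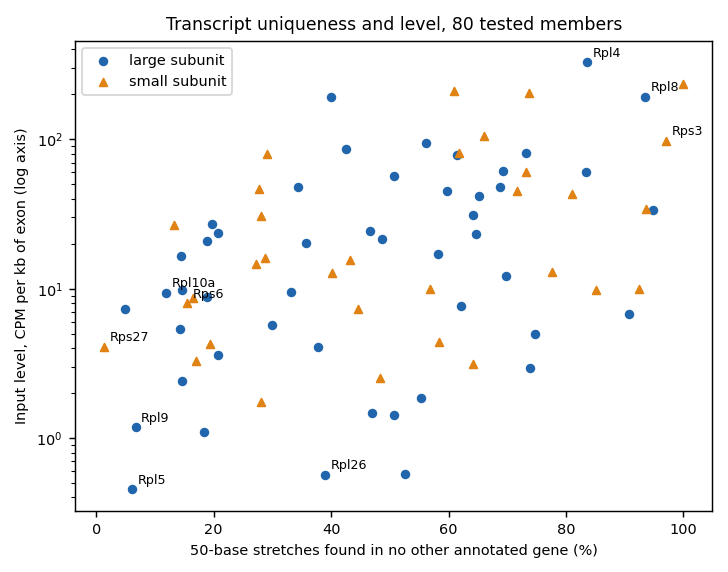
Share of each tested member's 50-base stretches that occur in no other annotated gene (horizontal axis, %) against its Input level per kb of exon (log axis). Points are members, circles large and triangles small subunit; the median Input level is 8.69 CPM per kb under 30% unique stretches, 11.3 from 30 to 60% and 44.3 at 60% or more, with low members such as Rpl26 also in the middle.

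The fold changes also differed along this axis. Of 26 tested members with under 30% unique stretches, 5 were higher and 4 lower in IP, with a median log2 fold change of 0.10. Between 30 and 60% there were 24, of which 5 were higher and 0 lower, with a median of 0.25. At 60% or more there were 30, of which 17 were higher and 0 lower, with a median of 0.38. Of all genes tested 26% were higher and 27.9% lower. The bands also differed in level, with a median Input of 6.255, 16.02 and 53.15 CPM in this order, and the part of level in the calls was not tested. All 4 falls had few unique stretches, 6.68% for Rpl9, 15.4% for Rps6, 16.4% for Rps12 and 27.8% for Rps4x. Counted in 100-base stretches, Rps4x reached 65.2% while Rpl9 stayed at 13.0%, Rps6 at 16.4% and Rps12 at 18.4%. Entries for reads that match several places are a larger share of IP than of Input files, as given above, and their part in these folds was not tested.

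Members were also grouped by coding length, with no test between groups. Members with a longest annotated coding sequence under 400 bases were higher in 13 of 26 cases and lower in 0, with a median log2 fold change of 0.49. From 400 to under 600 bases 8 of 29 were higher and 2 lower, with a median of 0.23, and at 600 bases or more 5 of 24 were higher and 2 lower, with a median of 0.11. Across 79 tested members coding length and log2 fold change correlated at r = -0.38 (Spearman's rho -0.47), and among the 29 of these with at least 60% unique stretches at r = -0.45. The same order held for genes that were no members. Of 607 tested non-members with a coding length under 400 bases, 58.6% were higher, with a median of 0.78. Of 1031 from 400 to under 600 bases 53.5% were higher, with a median of 0.57, and of 12498 at 600 bases or more 25.5% were higher, with a median of 0.00. The members' share called higher was thus above that of all genes tested, but within each length class it was below that of non-members. Their median was below that of non-members in each class under 600 bases and above it at 600 bases or more.

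**Figure D4:**
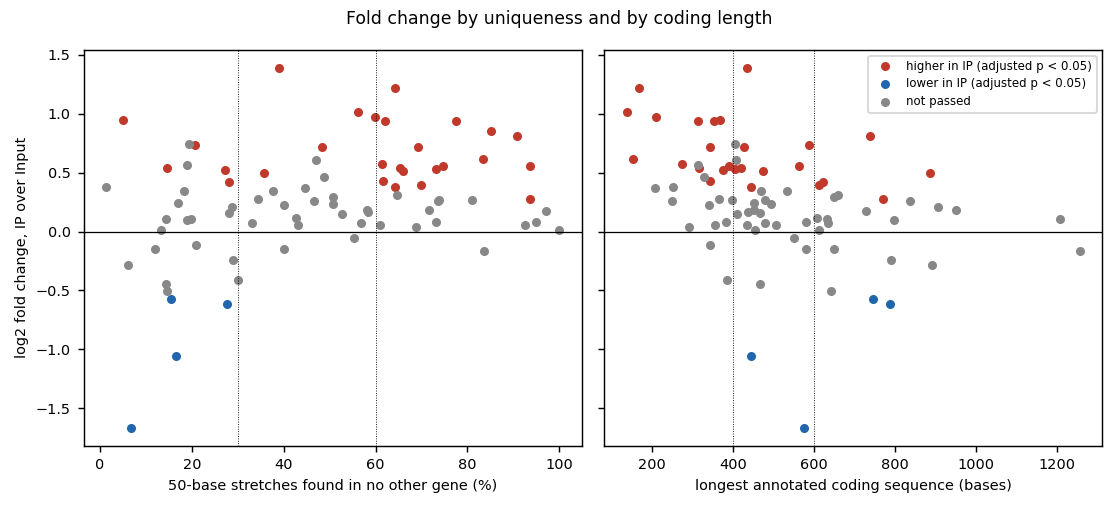
Log2 fold change of the tested members, IP over Input, against the share of 50-base stretches found in no other gene (left) and the longest annotated coding length (right); dotted lines mark 30 and 60% and 400 and 600 bases. Red points passed as higher in IP and blue points as lower; the 4 blue points lie under 30% unique stretches and above 400 bases.

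Paralogues were set against their parent genes by the log2 ratio of their CPM. Rps4l, an autosomal copy of Rps4x on chromosome 6 that GENCODE M21 annotates as a transcribed processed pseudogene, had 16.7, 14.3 and 19.3 CPM in IP against 8.75, 9.67 and 9.45 CPM in Input. This was a log2 fold change of 0.85 (SE 0.16), in the direction opposite to that of Rps4x. The log2 ratio of Rps4l to Rps4x was -0.90, -1.05 and -0.57 in IP and -2.44, -2.10 and -2.33 in Input, a difference of 1.45 (SE 0.17). Rps4l had 85.1% unique stretches. Rps27l, a p53-regulated relative of Rps27, had 14.3, 13.4 and 15.1 CPM in IP against 6.90, 6.40 and 9.06 CPM in Input, a log2 fold change of 0.93 (SE 0.18), whereas Rps27 stood at 0.38 (SE 0.27) and did not pass.

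The log2 ratio of Rps27l to Rps27 was higher in IP by 0.58 (SE 0.17) and that of Rpl7l1 to Rpl7 by 0.55 (SE 0.19). For each of these 3 pairs all IP ratios lay above all Input ratios, with p = 0.1 by a two-sided exact permutation test, the smallest value that 3 against 3 libraries can give, and 0.167 after Benjamini-Hochberg adjustment over 5 pairs. The ratio of Rpl22l1 to Rpl22 differed by 0.22 (SE 0.24, exact p = 0.6) and that of Rpl36al to Rpl36a by 0.06 (SE 0.23, exact p = 0.7). Both of those pairs overlapped between IP and Input. Per kb, Rps27l was above Rps27 in both groups, at 24.5 against 5.33 CPM per kb in IP and 12.8 against 4.10 in Input, but Rps27 had 1.35% unique stretches and Rps27l 77.6%.

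**Figure D5:**
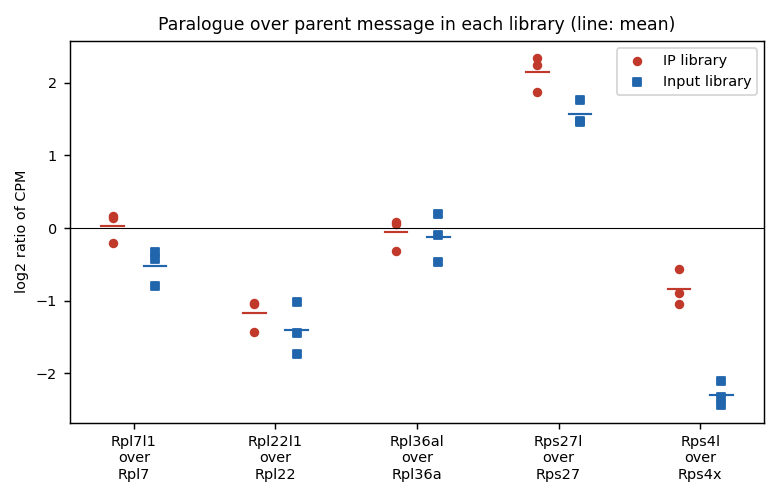
Log2 ratio of a paralogue's CPM to its parent's in each library, IP as red circles left of Input as blue squares, with the mean as a line. The IP ratios lie above the Input ratios for Rpl7l1, Rps27l and Rps4l, and overlap them for Rpl22l1 and Rpl36al.

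The paralogues known for restricted expression were near the detection limit. Rpl10l, a retrogene copy of Rpl10 that is used in male germ cells, had 0 counts in every library. This allows at most 0.0654 to 0.0788 CPM per library, without TMM factors, for counting error alone. Rpl39l, another paralogue of testis, had 2, 9 and 11 counts in IP and 12, 3 and 0 in Input. Rpl3l, the striated muscle form of Rpl3, had 8, 0 and 29 counts in IP and 5, 9 and 5 in Input. These 3 were the members that were not tested. Their transcripts had 92.4, 100 and 100% unique stretches.

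Ribosomal protein messages outside the naming rule were in part higher in IP. Fau, which codes for the small-subunit protein eS30 fused to a ubiquitin-like protein, had 9.70, 8.42 and 13.8 CPM in IP against 6.35, 4.08 and 5.38 CPM in Input. All IP libraries were above all Input libraries, with a log2 fold change of 1.01 (SE 0.25). Rpl36al was higher by 0.62 (SE 0.21), with an adjusted p under the threshold in edgeR. Rps27a, a ubiquitin fusion and a member, stood at 0.15 (SE 0.33). Rpsa, the laminin receptor protein of the small subunit, stood at 0.02 (SE 0.21), and Gnb2l1, the scaffold protein Rack1, at -0.18 (SE 0.11).

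Start regions were taken from RefSeq (GRCm38.p6) for the 62 members with an entry. A run of at least 5 pyrimidines that opens with a C and starts within 10 bases of an annotated start, on the sense strand, was found in 38 of them (61.3%), against 32.6% of 27025 genes with an entry. Of the 35 tested members with such a run 15 were higher in IP and 2 lower, with a median log2 fold change of 0.29. Of the 24 with no such run, 6 were higher and 2 lower, with a median of 0.18. Of all genes tested 26% were higher and 27.9% lower. Runs that began farther upstream were not scored even where they reached the start, and a scored run could end before it, as in Rpl10a. The split is therefore not one by TOP motif. Below are 30-base windows centred on an annotated start for members from both directions of change and for Rpl10a, chosen after their values were seen, with the run in capitals. Rpl10a and Rps6 are on the list to set the tagged gene and the S6 kinase target beside the others.
Rpl38: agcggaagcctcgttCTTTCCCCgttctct (chr11:114668565-114668594, plus strand, higher in IP)
Rpl35: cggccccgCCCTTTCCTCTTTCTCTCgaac (chr2:39005117-39005146, minus strand, higher in IP)
Rplp2: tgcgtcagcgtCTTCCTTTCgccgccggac (chr7:141447636-141447665, plus strand, higher in IP)
Rpl41: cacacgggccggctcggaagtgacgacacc (chr10:128549154-128549183, minus strand, higher in IP)
Rps6: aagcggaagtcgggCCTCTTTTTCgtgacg (chr4:86857353-86857382, minus strand, lower in IP)
Rps12: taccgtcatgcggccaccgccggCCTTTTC (chr10:23787195-23787224, minus strand, lower in IP)
Rps4x: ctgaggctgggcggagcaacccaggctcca (chrX:102189377-102189406, minus strand, lower in IP)
Rpl9: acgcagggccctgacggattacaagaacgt (chr5:65391417-65391446, minus strand, lower in IP)
Rpl10a: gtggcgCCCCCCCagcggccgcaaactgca (chr17:28328456-28328485, plus strand, did not pass)
Runs stood in the windows of members that rose and of members that fell. The windows of Rpl41, Rps4x and Rpl9 held none, which says only that these letters are not within 10 bases of the annotated start.

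Of 20 members whose human counterparts are mutated in Diamond-Blackfan anaemia, a failure of red cell production, 7 (35%) were higher and 1 (5%) lower in IP, with a median log2 fold change of 0.39. This was close to the 33.8% higher and 5% lower of all tested members, beside 26% and 27.9% of all genes tested. The fall was Rpl9, and the rises were Rpl15, Rpl18, Rpl26, Rpl35, Rps15a, Rps26 and Rps29. Rps19, the gene most often mutated in the disease, stood at 0.07 (SE 0.17).

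Genes that work with the members moved in both directions. Of 47 tested assembly factors 21 were higher and 4 lower in IP, with a median log2 fold change of 0.29. Nop10, a part of the box H/ACA particles that modify ribosomal RNA, had 209, 191 and 235 CPM in IP against 61.4, 58.0 and 66.2 CPM in Input, more than 3 times as high in each IP library as in its Input partner. Its log2 fold change was 1.78 (SE 0.12). Ebna1bp2 and Sbds, factors of large-subunit assembly and maturation that were named for their abundance and not for their fold change, stood at 0.67 (SE 0.11) and 0.29 (SE 0.10). Lower in IP were Ncl, which codes for nucleolin, at -0.54 (SE 0.09), Mdn1, an AAA ATPase of large-subunit assembly, at -1.66 (SE 0.22), and Utp15, a factor of small-subunit processing, at -0.38 (SE 0.11).

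Of 23 tested TOP messages outside the naming rule, Fau and Rpl36al included, 9 were higher and 4 lower, with a median of 0.15. The initiation helicase Eif4a2 stood at 0.26 (SE 0.09), the elongation factor subunit Eef1b2 at 0.47 (SE 0.10) and the initiation factor subunit Eif3f at 0.39 (SE 0.11). Elongation factor Eef1a1 fell by 0.56 (SE 0.10), the poly(A)-binding protein gene Pabpc1 fell by 1.01 (SE 0.09) and the splicing factor Hnrnpa1 fell by 0.62 (SE 0.12) on the log2 scale. Of 20 regulators of TOP translation and of ribosome production 7 were higher and 4 lower, with a median of 0.13. Rheb, which activates mTORC1, had a log2 fold change of 1.12 (SE 0.11), Eif4e, the cap-binding protein, 0.55 (SE 0.11) and Larp1, the TOP-binding repressor, 0.35 (SE 0.12). The kinase genes Rps6ka3 and Rps6kb2 stood at -0.51 (SE 0.14) and -0.91 (SE 0.25), and Mycn at -1.10 (SE 0.27). All genes named in these lists passed at an adjusted p of at most 0.0381 by edgeR's quasi-likelihood test, and background shares were 26% higher and 27.9% lower.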

How the data were processed

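The deposited values are raw counts of reads per gene symbol, 1 file per library. STAR 2.0.0e and HTSeq are named as the tools and mm10 as the build, per the submitters' processing notes. The annotation, strand and mode of HTSeq were not given in the sources used here. Alignments to several places and ambiguous reads stand in lines of their own at the end of each file, which were kept out of totals and tests with the reads outside any feature (7.79% in IP and 13.7% in Input of a file's whole sum), so near-identical copies and overlapping or antisense genes are uncertain. Genes were filtered with filterByExpr (minimum count 10, minimum total 15), which kept 17197, given TMM factors, and compared by edgeR 4.0.16 under R 4.3.3 (quasi-likelihood F test, two-sided, robust, Benjamini-Hochberg over all genes tested, threshold 0.05). The SE is the log2 fold change divided by the root of F. CPM use TMM-scaled totals. Floors of 3 counts use the library totals without TMM factors and cover counting error only.

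All 83 members were matched to GENCODE M21 (GRCm38, the build also called mm10), and all 50-base and 100-base stretches of a representative transcript were searched in the transcripts of other genes on both strands. Exon length is that of the merged exons of a gene's protein-coding transcripts, or the gene's whole span where it has none. It can differ from the representative transcript, as in Rpl9, with 2735 bases against 738. The members, the lists and the named-gene rule (Rpl10a, called members, paralogues, P stalk, 5S partners, the 5 highest per length, untested members, and up to 3 called genes per direction of each related list) were chosen with earlier results of these data known. Members just outside the rule, start-site windows and single tunnel-exit and Diamond-Blackfan genes were named with their values in view. By their labels, IP and Input libraries of the same replicate number had the same sequencing lane number. The correlation of a pair's deviations from the means of their groups was 0.155, 0.0744 and 0.0506 over all genes tested and 0.328, 0.165 and 0.129 over the members, and each IP library correlated best with the Input library of its number over all genes. Replicates correlated at 0.994 to 0.997 over members, and none was a copy of another (chi-square per degree of freedom 22 to 67.4). A few genes that the counts include are not reported here by name. The script was tested on simulated counts. Alternatives were RLE, upper-quartile, library-total and member-free TMM scaling, 2 other filters, a replicate block, DESeq2 1.42.0, limma-voom (limma 3.58.1), a threshold of 0.01 and leaving out libraries; leaving out IP replicate 2 with Input replicate 3, and shares of all lines, were added after seeing the data.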

Additional observations from a re-analysis of the deposited data

How the results depend on the processing

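No call changed direction in any of the 16 alternatives tried for single members, and 17 of the 31 calls held in each, Rpl41, Rpl38, Rpl35, Rplp2, Rpl7l1, Rps27l, Rps4l, Rpl9, Rps12 and Rps4x among them. Rpl8, Rpl36a, Rps23, Rpl15, Rps6, Rpl27a, Rpl26 and Rpl19 lost their call in 7 or more, and the other 6 in 1 to 5. Members called lower were 7 when scaled by the upper quartile and 7 by library totals, with 18 and 19 higher. The medians of tested members, large subunit and small subunit were 0.11, 0.13 and 0.040 by the upper quartile, 0.12, 0.14 and 0.053 by library totals, and 0.20, 0.21 and 0.13 with at least 1 CPM in 3 libraries. RLE scaling and DESeq2 each gave 0.23 for members and 0.16 for the small subunit. Relative to the median of all genes, which was -0.17 by the upper quartile and -0.15 by library totals, the members' median was 0.27 to 0.28 higher under these scalings, but 0.18 higher with at least 1 CPM in 3 libraries and 0.50 higher with no low-count filter. A threshold of 0.01 left 15 members higher. Without IP replicate 2 and Input replicate 3 together 17 were higher, and the median was 0.27 in the large and 0.30 in the small subunit, the reverse of their order with all libraries. Leaving out 1 library at a time gave 17 to 23 members higher, a members' median of 0.22 to 0.28 and a small-subunit median of 0.15 to 0.25. With the replicate block 28 members were higher and 3 lower, of which 24 and 3 were called without it; the calls it changed are given with the members. Shares of reads with several alignments limit the members with few unique stretches, and the cause of each shift was not tested.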
